A study of Mus musculus with 9 samples.

Results

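Cxcl12 is a chemokine, a small secreted protein that guides moving cells, and Cxcr4 is the G protein-coupled receptor through which it acts. In the gastrulating mouse embryo Cxcr4 is known from newly formed mesoderm and definitive endoderm, and antibodies to it are widely used to sort endoderm made in culture. Cxcl12 is known from mesenchymal and stromal cells, and a second receptor, Ackr3, takes it up and degrades it. The pair was read at all probes annotated to either gene on mouse Illumina bead arrays: 1 probe for Cxcr4 and 5 for Cxcl12, which makes 6 of the 25697 probes and 2 of the 16593 gene symbols deposited.

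The 9 arrays comprised 3 each of ES cells, of definitive endoderm derived in culture (DE) and of anterior foregut endoderm derived in culture (AFE). The ES cells had no reporter and a 129P2/OlaHsd background, DE came from R1 cells of 129X1/SvJ crossed with 129S1/SV-+p+Tyr- cKitlSl-J/+, and AFE came from cells of 129X1/SvJ, so strain, line and group cannot be told apart. Per the labels, all lines were kept with LIF on embryonic fibroblasts that were depleted before differentiation, endoderm was induced with 5 nM GSKiXV and 5 µM IDE-1 from day 2, and cells replated on day 6 received 500 nM A83-01, an inhibitor of activin and TGF-beta receptors, together with LDN193189 at 100 nM, which blocks BMP receptors. The series description says that cells were purified by flow cytometry. The gate of each sample and the day of collection are not given in the sources used here, so a level of Cxcr4 or Cxcl12 describes the sorted cells, whatever marker they were sorted on. If cells were sorted on Cxcr4, the gate would itself set its level, which cannot be told here. Whether the replicates were separate cultures is not recorded, so each p-value measures a spread that may be technical.

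The groups carried the marker genes of their labels. In DE, 14 of 15 definitive endoderm genes were higher than in ES cells, against 22.2% of all 10251 genes tested (limma, adjusted p under 0.05). In AFE 6 of 7 anterior foregut genes were higher than in DE, against 12.9% of all genes, and 5 without DE 1 or any 1 ES or AFE array. Gata4 and Cer1 were above background on DE arrays only, Pax1 and Eya1 on AFE arrays only, and Fgf4 of the pluripotency list on ES arrays only. These genes entered the test only through the group where they are high, so the filter favoured their calls. All 11 pluripotency genes tested were lower in DE than in ES cells, against 21.7% of all genes. On AFE 2, however, 6 of these 11 lay at least 2-fold above both other AFE arrays, where 42 of 10251 genes did so, with Nanog at 4.68, 8.48 and 4.76 and Dppa5a at 7.25, 10.97 and 8.03 on AFE 1, 2 and 3. Cxcr4 and Cxcl12 both lay between the other AFE arrays on AFE 2. The 12 extraembryonic endoderm genes tested were also higher in DE than in ES cells. Among the replicates, DE 3 stood apart: 704 genes (6.87%) lay at least 2-fold below both other DE arrays on it and 687 (6.7%) at least 2-fold above them, where DE 1 and DE 2 had 0 to 3 such genes each. AFE 3 had 296 and 378 (2.89% and 3.69%), and ES 3, alone on the second of 2 slides, had 125 and 203 (1.22% and 1.98%). Results that rest on DE 3 are therefore given with and without it.

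The 250 bases before the annotated start of each gene are shown because the expression values of the pair came apart between and within groups. Both are from RefSeq, build GRCm38.p6. Cxcl12 lies on chromosome 6 (chr6:117168535-117181368, plus strand) and has 3 curated transcripts. Cxcr4 lies on chromosome 1 (chr1:128588199-128592299, minus strand). Capitals mark every match, on either strand, to the TATA box TATAAA, the Sp1 box GGGCGG, the NRF1 word GCGCATG, the forkhead words TGTTTAC and TGTTTGC, the HIF cores ACGTG and GCGTG, the SoxF word CATTGT and the GATA word AGATAA. The Cxcl12 stretch is chr6:117168285-117168534 and the Cxcr4 stretch is chr1:128592300-128592549, each written 5′ to 3′ on the strand of its gene.
Cxcl12: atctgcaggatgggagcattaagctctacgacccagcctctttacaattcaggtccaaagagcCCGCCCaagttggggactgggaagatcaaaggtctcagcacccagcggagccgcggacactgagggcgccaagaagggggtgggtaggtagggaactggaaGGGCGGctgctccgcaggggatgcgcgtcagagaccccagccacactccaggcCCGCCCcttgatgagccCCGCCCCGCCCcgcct
Cxcr4: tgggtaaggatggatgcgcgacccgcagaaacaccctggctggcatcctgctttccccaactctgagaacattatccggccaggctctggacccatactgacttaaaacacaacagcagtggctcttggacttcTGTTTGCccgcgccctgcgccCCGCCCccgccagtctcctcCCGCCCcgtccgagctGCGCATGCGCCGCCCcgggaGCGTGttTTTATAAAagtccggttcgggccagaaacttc

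Both stretches were rich in G and C, 64.4% for Cxcl12 and 61.2% for Cxcr4, against a median of 52.4% over 32851 promoters of the same length. The Cxcr4 stretch held a TATA box from -30 to -25 before the start (with a second, overlapping match on the other strand), which 12.4% of all promoters held on either strand. It also held the NRF1 word on both strands, from -59 to -53 and from -56 to -50, the latter sharing 1 base with a Sp1 box (3.24% of promoters), a forkhead word from -116 to -110 (7.29%) and a HIF core from -39 to -35 (38.6%). The Sp1 box was matched 3 times for Cxcr4 and 5 times for Cxcl12, 2 of those 5 sharing a base, and was found in 32.7% of promoters. The other words searched had no match in the Cxcl12 stretch, and the SoxF word (10.7% of promoters) and GATA word (9.99%) had none in either. These matches describe the letters only, and binding was not measured.

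Cxcr4, the receptor, was near background in ES cells and bright in both endoderm groups. Its intensities were 126, 119 and 86.4 on ES 1, 2 and 3, with detection p-values of 0.0338, 0.135 and 0.0401, so it was above background on 2 of 3 ES arrays. On DE 1 and DE 2 the intensities were 5398 and 6850, on DE 3 it was 352, and on AFE 1, 2 and 3 they were 667, 941 and 1201. The normalized log2 levels were 5.16, 4.85 and 5.08 in ES cells, 12.05, 12.25 and 8.37 in DE, and 9.55, 9.99 and 10.57 in AFE. Every DE and AFE array therefore lay above every ES array, while DE and AFE overlapped because DE 3 lay below all 3 AFE arrays and DE 1 and 2 above them.

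**Figure D1:**
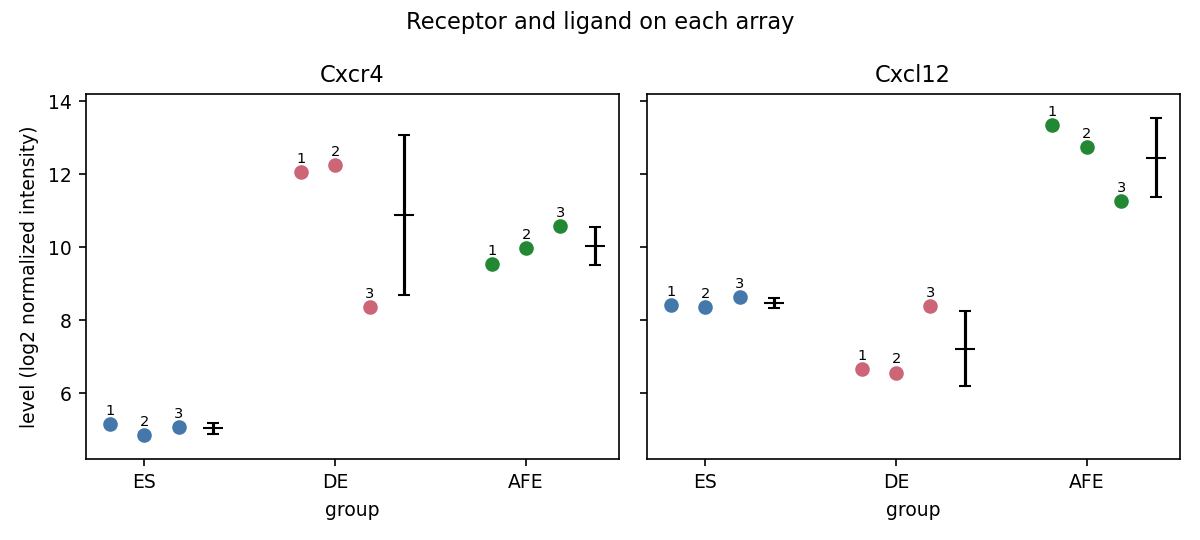
Levels of Cxcr4 (left) and Cxcl12 (right, brightest probe) in log2 normalized intensity on each array; numbers are replicates, bars beside each group are the mean ± SD, n = 3. Cxcr4 stood at 12.05 and 12.25 on DE 1 and 2 but 8.37 on DE 3, and Cxcl12 was highest on the 3 AFE arrays, 11.26 to 13.35.

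Of all genes tested, 43.9% passed in DE against ES, 23% in AFE against DE and 42.1% in AFE against ES, with 22.8% higher and 19.3% lower in the last. In DE against ES, Cxcr4 rose by 5.86 ± 0.86 (log2 change ± SE, n = 3 arrays a group, adjusted p = 0.000566), a 58.0-fold change and the 15th largest rise of 10251 genes. In AFE against ES it rose by 5.00 ± 0.86 (adjusted p = 0.00147), 32.1-fold and again the 15th largest rise. Since its ES level lies near background, both folds depend on how the background is treated: without background correction the changes were 3.99 and 3.12. Without DE 3 the rise in DE against ES was 7.12 (adjusted p = 3.25e-07).

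Between the endoderm groups, Cxcr4 differed by -0.85 ± 0.86 in AFE against DE, with a 95% interval from -2.77 to 1.07, and did not pass (adjusted p = 0.511). Without DE 3 the difference was -2.12 ± 0.28 (adjusted p = 0.000550), so that this call rests on 1 array. The Cxcr4 range over the DE arrays, 3.88 on the log2 scale, was matched or exceeded by 69 of 10251 genes (0.673%), while the median gene had a DE range of 0.50. DE 3 lay 12.9-fold below DE 1 and 14.7-fold below DE 2, which differed from each other by 1.15-fold.

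Cxcl12, the ligand, ran differently: it was moderate in ES cells, lowest on DE 1 and 2, and among the strongest genes gained in AFE. At its brightest probe, ILMN_2658908, the intensities were 457, 414 and 397 on ES 1, 2 and 3. They were 224, 242 and 358 on DE 1, 2 and 3. On AFE 1, 2 and 3 they were 8394, 6077 and 1912. The log2 levels were 8.42, 8.35 and 8.63 in ES cells, 6.67, 6.57 and 8.40 in DE, and 13.35, 12.74 and 11.26 in AFE. All AFE arrays lay above all others, and DE overlapped ES through DE 3 alone.

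In AFE against DE, Cxcl12 rose by 5.24 ± 0.58 (adjusted p = 0.000373), 37.8-fold and the 4th largest rise of all genes tested. In AFE against ES it rose by 3.98 ± 0.58 (adjusted p = 0.000592), 15.8-fold and the 43rd largest. In DE against ES it differed by -1.26 ± 0.58 at this probe, with a 95% interval from -2.56 to 0.04, and did not pass (adjusted p = 0.106). Without DE 3 the value was -1.85 (adjusted p = 0.0113).

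**Figure D2:**
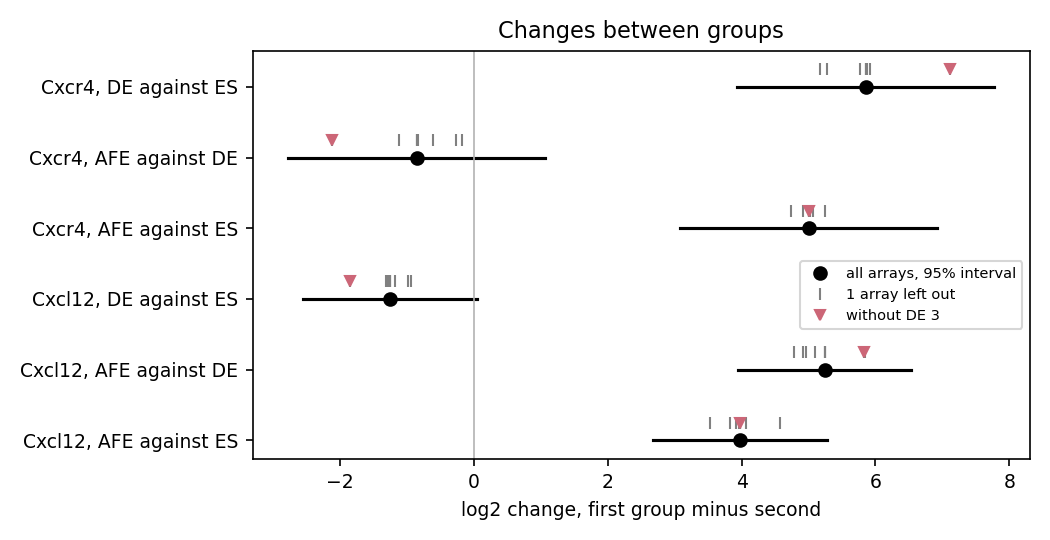
Log2 changes of Cxcr4 and Cxcl12 in each comparison with 95% intervals of limma (black, all 9 arrays), and the change with 1 array left out (grey ticks, red triangle for DE 3). Leaving out DE 3 moved Cxcr4 in AFE against DE from -0.85 to -2.12 and Cxcl12 in DE against ES from -1.26 to -1.85.

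The other Cxcl12 probes were dimmer. ILMN_2737302 and ILMN_3158250, annotated to other transcripts than the brightest probe, were above background on all ES and AFE arrays but on DE 3 alone among the DE arrays. ILMN_2737302 stood at log2 levels of 6.93, 6.91 and 7.03 in ES cells, 4.77, 4.94 and 5.55 in DE, and 8.57, 8.23 and 7.01 in AFE. ILMN_3158250 stood at 6.52, 6.91 and 6.73, then 4.84, 5.05 and 5.44, then 8.39, 8.07 and 7.33. Both put DE 3 highest within DE and ordered the AFE arrays 1, 2, 3 from high to low, as the brightest probe did. For ILMN_2737302, AFE 3 lay below ES 3 and above the other ES arrays.

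Adjusted over the 15090 probes kept, both dim probes were lower in DE than in ES cells: ILMN_2737302 by -1.87 ± 0.37 (adjusted p = 0.00286) and ILMN_3158250 by -1.61 ± 0.28 (adjusted p = 0.00149). The probes thus disagree on the call but not on the sign, since the brightest probe did not pass there. In AFE against DE the dim probes rose by 2.85 ± 0.37 and 2.82 ± 0.28 (adjusted p = 0.000852 and 0.000214). In AFE against ES ILMN_3158250 rose by 1.21 ± 0.28 (adjusted p = 0.00708), while ILMN_2737302 missed the threshold at 0.98 ± 0.37 (adjusted p = 0.0570). The last 2 probes, ILMN_2746295 and ILMN_3078973, were above background on 0 of 9 arrays, with levels from 4.41 to 4.94 and from 4.36 to 4.75. The sources used here do not say which transcripts a probe reads beyond its annotated one, and no isoform is therefore singled out.

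**Figure D3:**
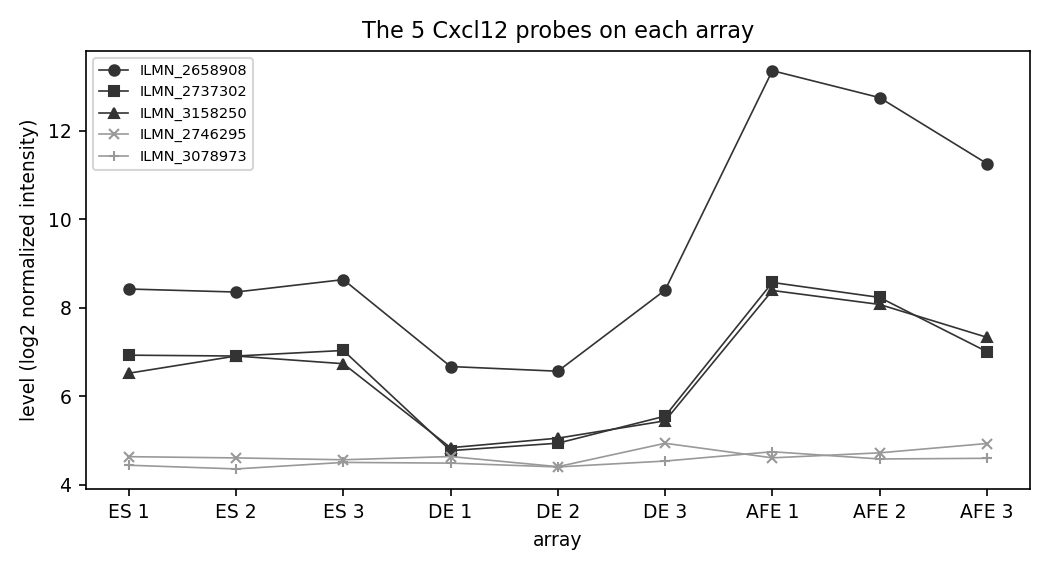
Log2 normalized intensity of the 5 Cxcl12 probes on each of the 9 arrays; lines join the values of 1 probe, and grey marks the 2 probes above background on 0 of 9 arrays. The 3 detected probes were lowest in DE and highest in AFE, and each was higher on DE 3 than on DE 1 and 2.

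Set side by side, the ligand and the receptor moved apart in DE, most on DE 1 and 2, while both rose from ES cells to AFE. ES cells had little receptor with moderate ligand, DE 1 and 2 had the most receptor with the least ligand, and AFE had both. The per-array difference of Cxcl12 minus Cxcr4 (log2) was 3.26, 3.50 and 3.56 in ES cells, -5.38, -5.68 and 0.03 in DE, and 3.81, 2.76 and 0.68 in AFE. Its size depends on the probes and does not say which gene is more abundant, but its change among groups shows unequal change. Group means ± SD were 3.44 ± 0.16, -3.68 ± 3.21 and 2.42 ± 1.59, n = 3 each, and the groups differed (exact permutation test of F over 1680 assignments, p = 0.0143, smallest possible 0.00357). Pairwise, the exact two-sided permutation p was 0.10 for DE against ES and for AFE against DE, the smallest 3 against 3 arrays can give, and 0.40 for AFE against ES. Adjusted over the 3 pairs these became 0.15, 0.15 and 0.40. Without any 1 ES array the overall p was 0.0571, without AFE 2 or AFE 3 it was 0.0536 and 0.0643, and without DE 3 it stayed at 0.0143.

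At the brightest Cxcl12 probe, arrays with more receptor had less ligand within DE and within AFE. The dim probes gave the same order in AFE, but in DE they put DE 2 above DE 1, as Cxcr4 did, so that only the place of DE 3 was opposite at all 3 probes. DE 3 had the lowest Cxcr4 and the highest Cxcl12 of its group, each at least 2-fold beyond both other DE arrays. In AFE the Cxcr4 order was 3, 2, 1 from high to low and the Cxcl12 order 1, 2, 3, with ranges of 1.03 and 2.10. AFE 3 lay 4.28-fold below AFE 1 and 2.81-fold below AFE 2 in Cxcl12. Of all genes tested, 20.8% fell from AFE 1 over AFE 2 to AFE 3 and 21% rose, so that order by itself is common. Across the 9 arrays, deviations from the group means correlated at r = -0.83, where the points share their group means and DE 3 and AFE 3 are arrays with many deviating genes. The pooled correlation of the levels was 0.04.

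**Figure D4:**
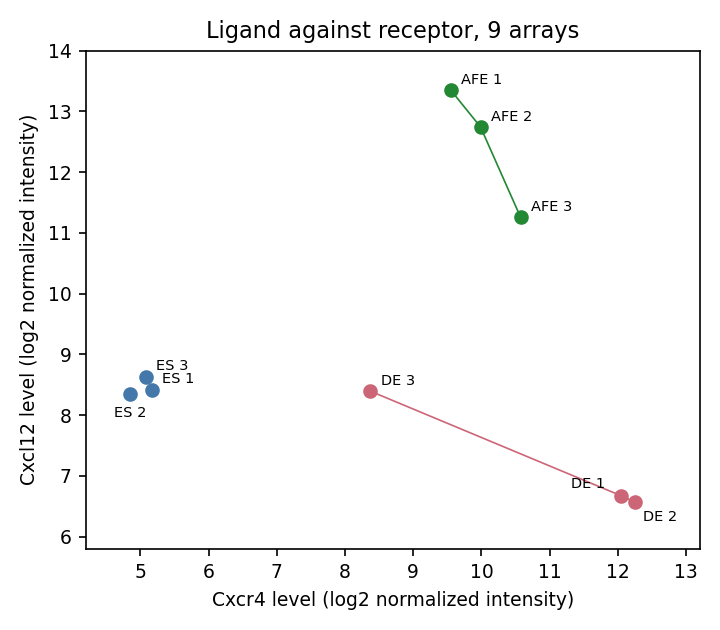
Level of Cxcl12 (brightest probe) against level of Cxcr4 on each of 9 arrays, both in log2 normalized intensity; lines join arrays of DE and of AFE. ES arrays lie at low Cxcr4, DE 1 and 2 at high Cxcr4 and low Cxcl12, and in both endoderm groups the array with the most Cxcr4 has the least Cxcl12.

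Marker genes of some other cell types moved with these arrays, and their part in the levels of the pair was not tested. The mean of the 6 mesoderm genes tested (11 on the array) did not, at 5.79, 5.83 and 5.79 on DE 1, 2 and 3, but single members did. On DE 3, 1 of 6 mesoderm genes lay at least 2-fold above both other DE arrays and 1 below, against 6.7% and 6.87% of all genes. These were Tcf15, at 4.66, 4.87 and 7.82 on DE 1, 2 and 3, and Meox1, at 7.80, 7.76 and 6.26. Of 11 pluripotency genes 3 lay above and 3 below. In bulk RNA, fewer cells of a type and less RNA per cell cannot be told apart. Endothelium is known to express both Cxcr4 and Cxcl12. Of 22 endothelium and blood genes on the array 16 were tested, and on DE 3 12 of these lay at least 2-fold above both other DE arrays and 1 below, against 6.7% and 6.87% of all genes. The list's summed normalized intensity was 11371 and 12517 on DE 1 and 2 and 66178 on DE 3, against 3859 to 4606 in ES cells and 2042 to 3701 in AFE. Emcn, Sox18 and Robo4, endothelial genes, stood at log2 levels of 13.23, 12.47 and 11.84 on DE 3 and at 4.40 to 4.99 on DE 1 and 2. The gene below was Flt1, which encodes a VEGF receptor, at 12.91, 13.14 and 11.77 on DE 1, 2 and 3. The blood factor gene Runx1 (7.83, 7.93 and 7.01) was also lowest on DE 3. The VEGF receptor gene Kdr (5.12, 4.86 and 4.79) was above background on only 1 DE array, so its order there says little.

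Within DE, definitive endoderm genes went the way of the receptor. In AFE against DE 10 of 15 fell (11 without DE 3), against 10.1% of all genes, with Gata4 and Cer1, above background on DE arrays only, among them. Cxcr4 there differed by -0.85 and did not pass, or by -2.12 and passed without DE 3. On DE 3, 8 of 15 lay at least 2-fold below both other arrays and 0 above, against 6.87% of all genes below. Cer1, a secreted inhibitor of Nodal signalling, stood at 11.75, 11.52 and 6.86 on DE 1, 2 and 3, Lhx1, a homeodomain factor of the anterior endoderm, at 12.88, 12.84 and 9.01, and Gsc at 13.77, 13.34 and 10.34. Of the extraembryonic endoderm genes, 7 of 12 lay at least 2-fold above both other arrays on DE 3 and 0 below, against 6.7% and 6.87% of all genes. Not all members rose: Apoa1 stood at 12.93, 12.86 and 12.14 and Rbp4 at 11.55, 11.49 and 10.55 on DE 1, 2 and 3. Sox7, a factor of parietal endoderm and of endothelium, stood at 8.75, 9.14 and 11.93, and the laminin chain gene Lama1 at 12.53, 12.35 and 14.68.

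Fibroblasts and other mesenchymal cells are a known source of Cxcl12. Of 18 fibroblast and mesenchyme genes tested (20 on the array), 11 were lower and 1 higher in DE than in ES cells, against 21.7% and 22.2% of all genes, and 10 were lower in AFE than in ES cells, against 19.3%. In AFE against DE 4 were lower and 2 higher, against 10.1% and 12.9% of all genes, but 2 were lower without ES 1, ES 2, AFE 1, AFE 2 or AFE 3. Summed normalized intensity was 33380 to 66377 in ES cells, 8737 to 15574 in DE and 8971 to 35555 in AFE. The brightest members weigh most in such a sum. In AFE the highest sum was on AFE 3, where the mean log2 level of the list was lowest, 6.50 against 7.05 and 7.16 on AFE 1 and 2. In AFE the collagen gene Col3a1 stood at 9.49, 8.56 and 5.02 on arrays 1, 2 and 3, the array order of Cxcl12. The proteoglycan gene Lum at 7.99, 7.17 and 4.73 and the collagen gene Col1a1 at 7.71, 7.14 and 4.70, both picked after their values were seen, ran the same way. The smooth muscle actin gene Acta2, the brightest of the list on each AFE array, ran the other way at 12.54, 13.64 and 15.04. In all, 4 of the 18 fell and 5 rose over AFE 1, 2 and 3, close to the shares of all genes. By size, 6 of the 18 lay at least 2-fold below both other AFE arrays on AFE 3 and 2 above. Of all genes 2.89% and 3.69% did so. On AFE 1, 2 lay below and 0 above. On DE 3, 6 lay at least 2-fold above both other DE arrays and 1 below, against 6.7% and 6.87% of all genes. Thy1, a fibroblast surface gene, was at 4.46 to 5.10 on the AFE arrays, above background on 0 of 3, against 11.20 to 11.95 in ES cells.

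**Figure D5:**
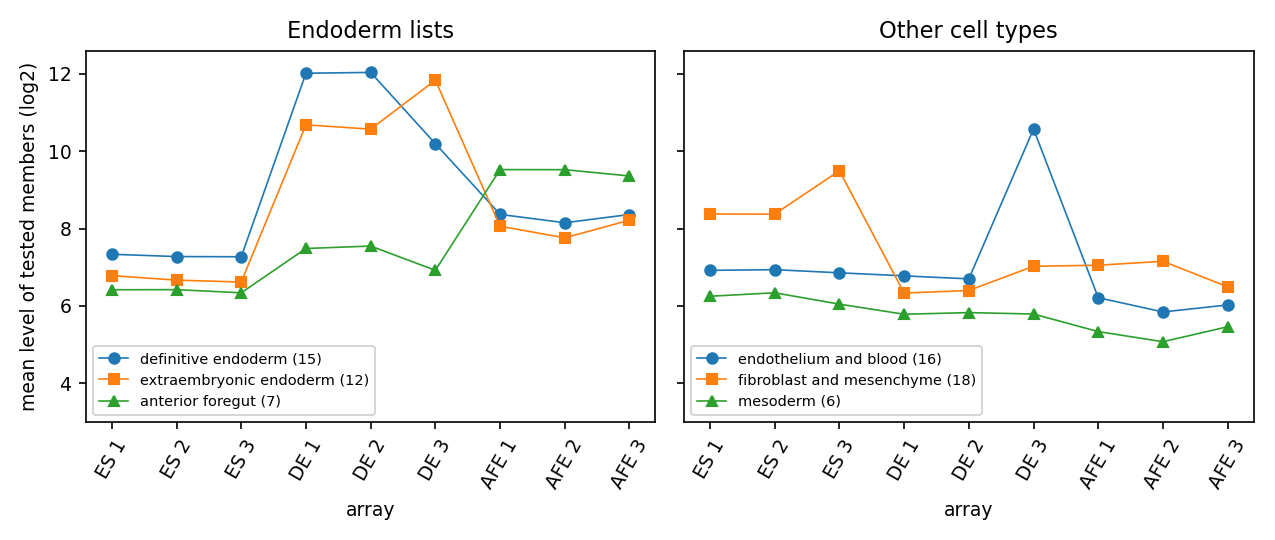
Mean log2 level of the tested members of 3 endoderm lists (left) and of lists of other cell types (right) on each array, with the number of members in brackets. On DE 3 the definitive endoderm mean was 10.20, against 12.02 and 12.04 on DE 1 and 2, and the endothelium and blood mean was 10.58, against 6.78 and 6.70.

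Of 8 genes for other proteins that bind or handle Cxcl12 or act with Cxcr4, 6 were above background on enough arrays to be tested. Ackr3, the scavenging receptor, was above background on 0 of 9 arrays at its probe. Dpp4, a surface protease that clips Cxcl12 at its amino end, stood at 8.57, 8.56 and 7.25 in ES cells, 9.98, 9.89 and 10.82 in DE and 7.72, 8.11 and 8.65 in AFE. It rose by 2.10 ± 0.41 in DE against ES (adjusted p = 0.00285) and fell by 2.07 ± 0.41 in AFE against DE (adjusted p = 0.00720). In AFE against ES it differed by 0.03 ± 0.41 (adjusted p = 0.959), where Cxcr4 stayed high, and within DE it was highest on DE 3, where Cxcr4 was lowest. The membrane protease Mmp14 rose by 1.57 ± 0.29 in DE against ES and by 1.01 ± 0.29 in AFE against ES (adjusted p = 0.00210 and 0.0189, the latter not passing without ES 1 or ES 2), while the proteoglycan Sdc4 fell by 0.94 ± 0.34 in DE against ES (adjusted p = 0.0463, not passing with DE 1, DE 2, AFE 1 or any ES array left out). Mif, a cytokine that also binds Cxcr4, was high throughout, at 15.22 to 15.66. Of the 6 tested genes of 8, 2 were higher and 1 lower in DE than in ES cells, near the 22.2% and 21.7% of all genes, with a median of -0.14 (0.05 with cyclic loess) against 0.01 for all genes.

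Cxcr4 was the one chemokine receptor with a bright signal. Of 20 others on the array, 13 were above background on 0 of 9 arrays and 4 were tested, with levels that reached at most 5.58 outside Ackr1. Ackr1, a chemokine-binding receptor of venous endothelium and red cells, stood at 5.05, 5.15 and 7.39 on DE 1, 2 and 3. Ccr6, above background on 0 DE arrays, was at least 1.31-fold higher in AFE than in DE (adjusted p = 0.0144, not passing without DE 1). Cxcr6, above background on 3 ES arrays and on 0 DE and 0 AFE arrays, was at least 1.18-fold lower in DE and at least 1.03-fold lower in AFE than in ES cells (adjusted p = 0.00320 and 0.00984). Its ES levels were only 5.12 to 5.50. Cxcr6 entered the test only through ES cells, and Ccr6, above background on 3 AFE arrays and 1 ES array, through AFE. The filter therefore favoured these calls.

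Of 37 other chemokine ligands on the array 11 were tested, and in AFE against DE 0 rose and 1 fell, against 12.9% and 10.1% of all genes. Ccl27a fell by 1.65 ± 0.50 (limma, adjusted p = 0.0415), a call lost without ES 1, DE 1, DE 2, AFE 1 or AFE 2. At an unadjusted p under 0.05, 2 were higher and 1 lower, where the share of all genes was not counted. Without DE 3, Ccl11, an eosinophil attractant, rose by 0.71 ± 0.21 (adjusted p = 0.0293), against 0.56 ± 0.21 (adjusted p = 0.0843) with all arrays, and Ccl27a still fell. In DE against ES 5 fell and 1 rose, against 21.7% and 22.2% of all genes, with a median of -0.75 against 0.01. Of those that fell, Cxcl10, Cxcl14, Ccl2 and Ccl7 were above background on 3 ES arrays and on 0 DE arrays. They entered the test only through ES cells, so the filter favoured a fall, and the count and median are descriptions. Ccl7, a monocyte attractant, fell at least 20.8-fold, Cxcl14 at least 18.2-fold, and the neutrophil attractant Cxcl1 fell by 3.26 ± 0.80 (adjusted p = 3.87e-07, 6.43e-07 and 0.00910). Ccl7 stood at 9.25, 9.45 and 9.78 and Cxcl1 at 7.39, 7.15 and 10.20 on ES 1, 2 and 3. Ccl7, Cxcl1 and the fibroblast list were all highest on ES 3, where 7 of 18 fibroblast genes lay at least 2-fold above both other ES arrays, against 1.98% of all genes.

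Among genes that carry the Cxcr4 signal, 20 of the 27 on the array were tested. In DE against ES 7 rose and 2 fell, with a median of 0.34, against 22.2% and 21.7% of all genes. With single arrays left out 4 to 8 rose and 0 to 4 fell, the lowest being 4 rises without ES 3 and 0 falls without DE 1, and the highest 4 falls without DE 3. Gnai2, an inhibitory G protein subunit used by chemokine receptors, rose by 1.57 ± 0.22 (adjusted p = 0.000428), from 11.43, 11.12 and 10.85 in ES cells to 12.40, 13.04 and 12.66. Elmo1, which helps to activate Rac in migrating cells, rose by 1.59 ± 0.23 (adjusted p = 0.000489) from 8.94, 9.03 and 9.03 to 10.52, 10.48 and 10.78. Neither was lower on DE 3 than on both other DE arrays, unlike the receptor itself. The subunit Gng2 fell by 1.57 ± 0.50 (adjusted p = 0.0282). The other gene that fell, Ptk2b, was above background on 3 ES arrays and 0 DE arrays, so it entered the test only through ES cells.

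In AFE against DE 4 of the 20 fell and 0 rose, against 10.1% and 12.9% of all genes. With median scaling 7 fell, but that scaling moved the calls over all genes from 56.1% higher to 33.4% higher. At an unadjusted p under 0.05, 0 were higher and 7 lower, but the share of all genes at that threshold was not counted. Without DE 3, 4 fell and 2 rose, Gng2 by 0.97 and the arrestin gene Arrb2 by 0.71. Rgs16, a brake on G protein signals, fell by 2.88 ± 0.25 (adjusted p = 0.000122), Stat3, a transcription factor activated by Jak kinases, fell by 2.22 ± 0.26 (adjusted p = 0.000586), Elmo1 fell by 1.52 ± 0.23 (adjusted p = 0.00188) and Gnai2 fell by 1.12 ± 0.22 (adjusted p = 0.00661). In AFE against ES 4 of the 20 fell, near the 19.3% of all genes lower, and 1 rose, against 22.8% higher. Rgs16 fell by 3.30 ± 0.25 and Stat3 fell by 2.12 ± 0.26, while the kinase gene Jak2 rose by 1.05 ± 0.23 (adjusted p = 1.35e-05, 0.000242 and 0.00578). The other genes that fell were Grk6 and Ptk2b, the latter above background on 3 ES arrays and 0 AFE arrays.

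The profiles most like that of Cxcr4 over the 9 arrays, by Pearson's r on log2 levels, were those of Tmem184a (r = 0.994), Sel1l3 (0.990), Zhx1 (0.989), Peli1 (0.988) and Opn3 (0.985). Tmem184a, which encodes a membrane protein, stood at 5.43, 5.04 and 5.50 in ES cells, 10.26, 10.27 and 8.13 in DE and 8.88, 8.98 and 9.63 in AFE. It shared the drop on DE 3 and the top place of AFE 3. In all, 450 genes had an r over 0.9 with Cxcr4.

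For Cxcl12 they were Crabp2 (r = 0.984), Gli3 (0.984), Cdca4 (0.979), Gatc (0.977) and Ska2 (0.976), and 149 genes had an r over 0.9. Crabp2, which carries retinoic acid, stood at 7.39, 7.29 and 7.62 in ES cells, 6.36, 6.61 and 7.97 in DE and 10.20, 9.52 and 8.77 in AFE, with the same high DE 3 and falling order in AFE. Gli3, a transcription factor of the hedgehog pathway, spanned 4.63 to 5.85. These likenesses are descriptions over 9 arrays that fall into 3 groups.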

How the data were processed

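Total RNA (500 ng) was amplified and biotin-labelled, per the labels' protocols. The deposited intensity values are bead signals per probe, linear and not normalized between arrays, and come with detection p-values, per the file headers. The detection p-values were taken to compare these signals with negative controls, which the column headers do not state. The sources used here do not name the software that made them. The log2 values of the authors' processed table were made by an unstated method.

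With R 4.3.3 and limma 3.58.1, neqc used the detection p-values for background, added 16 and normalized by quantiles. A single symbol was annotated for 23978 of 25697 probes, 0 probes had several and 1719 had none; 23962 matched the RefSeq gene table. Kept were 15090 probes with detection p under 0.05 on at least 3 arrays. The brightest kept probe stood for a gene, giving 10251 genes. limma's lmFit and eBayes fitted the 3 groups to all 9 arrays, with Benjamini-Hochberg adjustment over the 10251 genes. Median intensities ran from 93.9 to 151 and detected probes from 12628 to 14352 per array, and the 3 arrays a group limit the precision. "At least" folds set the bright group's mean against the higher of the lowest detected signal and the gene's own, per array. "Rose" and "fell" are used at an adjusted p under 0.05, unless array values are described. Tested on simulated data with 10251 genes, the fit recovered 37% of 2-fold and 83% of 4-fold changes in DE against ES, 39% and 82% in AFE against DE, and 40% and 84% in AFE against ES.

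Members, lists, named genes and comparisons were chosen with earlier results of these data known. Named genes are both members, per pathway list up to 3 called genes of largest change per comparison, per marker list up to 3 of largest change or range over DE arrays, and the 5 genes of highest r with each member. Any other gene described was picked with its values known. Replicate numbers did not pair arrays (r of same-numbered deviations from -0.14 to 0.07).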

Additional observations from a re-analysis of the deposited data

Results flagged for a closer look

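In the authors' processed table the column labelled ES replicate 2 ranks the probes as no intensity column does. It holds Cxcr4 at 11.42 on the log2 scale, against 4.87 and 4.43 in the other ES columns and 11.84, 11.99 and 8.12 in the DE columns. It is given here because a signal above the ES level appears in values that the comparisons above do not use. Its Cxcl12 value at the brightest probe is 5.52, against 8.20 and 8.07 in the other ES columns and 6.50 and 6.42 in those of DE 1 and 2. Over all probes it ranks most like DE 2 (Spearman's rho 0.926, against 0.880 with the intensities of ES 2). The column labelled ES replicate 3 ranks exactly as the intensities of ES 2.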

How the results depend on the processing

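Each change of the pair was recomputed under 24 to 26 other settings, and 0 turned its direction. Cxcr4 passed in DE against ES and in AFE against ES in all but 1: with the authors' processed table, whose ES replicate 2 column is described above, they were 3.74 (adjusted p = 0.187) and 2.85 (adjusted p = 0.299). That table gave 667 genes called in DE against ES, 883 in AFE against DE and 1335 in AFE against ES, where the intensities gave 4503, 2358 and 4319, and an exact p of 0.214 for the difference of Cxcl12 minus Cxcr4. Without that column, an alternative chosen after seeing the data, the exact p was 0.0571. Cxcl12 in DE against ES, not passing at -1.26, passed at -1.58 with the mean of its detected probes, and at -1.61 and -1.87 with ILMN_3158250 and ILMN_2737302 read alone. In AFE against ES it missed at 0.98 with ILMN_2737302 alone. Without DE replicate 3 and AFE replicate 3 together, also chosen later, Cxcl12 in DE against ES was -1.85 and Cxcr4 in AFE against DE -2.38, both passing, 3923 genes were called in AFE against DE, and the exact p was 0.0762, with fewer arrays to permute.

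Leaving out 1 array at a time, Cxcr4 ranged from 5.18 to 7.12 in DE against ES, from -2.12 to -0.17 in AFE against DE and from 4.74 to 5.25 in AFE against ES. Cxcl12 ranged from -1.85 to -0.94, from 4.79 to 5.84 and from 3.53 to 4.58. Genes called ranged from 3426 to 5022, from 1421 (without DE 2, and 1506 without DE 1) to 3235 and from 3274 to 5162, and the exact p from 0.0143 to 0.0643. Of the calls in AFE against DE 56.1% were higher, but 33.4% with median scaling, which moved the median change of all genes there from 0.07 to -0.12. List counts without single arrays or with other scalings were also added after seeing the data. With the replicate number as a block, the adjusted p of Cxcr4 was 0.00190 in DE against ES and 0.531 in AFE against DE, that of Cxcl12 0.00252 in AFE against DE, and 4288, 2097 and 4161 genes were called, so the block changed no call of the pair. A block for the slide has the effect of leaving out ES 3 and gave Cxcr4 5.88 in DE against ES. Low signal limits Cxcr4 in ES cells and the dim Cxcl12 probes in DE.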
